A study of Bos taurus with 20 samples.

Results

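Heat shock proteins and other molecular chaperones were followed in bovine neck muscle through 10 genes: HSPA1A, HSPA5, HSPA8, HSPB1, CRYAB, HSP90AA1, HSPD1, HSPE1, HSPH1 and DNAJB1. Their probes were found on a 1-colour Agilent cattle array by gene symbol, older or newer symbols of the same gene included, and they are 10 of 14604 named genes on it. The array held 12 such probes among 21475, and 11 of the 12 were well above background on all 20 arrays. HSPA1A had 3 probes and each other gene had 1. For HSPA1A the probe with the highest mean signal (A_73_116780) stands for the gene unless the second probe (A_73_104629, which the array design calls HSPA1B) or the third (A_73_115519) is named. The third probe was above background on 3 arrays and was not tested. The array design names A_73_116780 only by an expressed sequence tag, BP106912, and was matched to HSPA1A through the symbol in its description. The design gives the name HSPA1A itself to A_73_115519, the dim probe that was not tested. Probes that the array design describes only as similar to HSPA8, DNAJB1 or HSPD1 were not counted. The array cannot separate HSPA1A from near-identical HSP70 copies.

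Neck muscle came from 10 cows at slaughter, 5 control animals (K3, K6, K8, K9 and K10) and 5 treated ones (DE27, DE29, DE30, DE31 and DE32). Treatment combined oral dexamethasone (a glucocorticoid drug, 0.4 mg daily per animal over 31 days) with estradiol (5 mg weekly per animal, injected into muscle 6 times). Each animal gave a sample at day 0 and another after vacuum storage at 4 °C, on day 14, so there were 4 groups of 5 arrays: control day 0, treated day 0, control day 14 and treated day 14. Dexamethasone and estradiol were always given together, so their effects cannot be told apart. The label of 1 day 0 array names its animal as D31 and was read as DE31.

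Chaperones hold unfolded proteins, prevent their aggregation and help them fold. HSP70 proteins bind exposed segments of a client under ATP control, J proteins such as DNAJB1 deliver clients and start ATP hydrolysis, and exchange factors such as HSPH1 release the nucleotide. HSP90 finishes the folding of kinases and steroid hormone receptors, the glucocorticoid receptor among them, while small heat shock proteins such as HSPB1 and CRYAB are abundant in striated muscle and guard its myofibrils. HSF1 is the main transcription factor of the heat shock response, with HSPA1A and DNAJB1 as classic targets.

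All values are log2 of the scanner's processed signal, with each array centred on its 75th percentile. A probe's values compare arrays, and levels of different probes are not compared. The uncentred 75th percentile of the signal ran from 654 to 945 at day 0 and from 274 to 533 at day 14, so every stored sample gave a dimmer array than every fresh one. Between 56.1% and 69.4% of spots were well above background. All 11 skeletal muscle markers tested (of 13 listed) were measured in these samples, with a summed linear signal between 834000 and 2040000 per array. Arrays lay on 6 slides. The file headers give 3 days on which the scanner software extracted the signals, and these are called scan days here. No date of the scan itself was read. Slides 1 and 3 held only day 0 arrays and slides 2 and 4 only day 14 arrays.

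The first question was whether the hormone treatment changed the chaperones in fresh muscle. None of the 10 genes passed the test at day 0 (limma, Benjamini-Hochberg adjusted over all 15430 tested probes, threshold 0.05). Adjusted p lay between 0.47 and 0.96, and at an unadjusted p under 0.05 the count was 0 too, beside 17.3% of all probes. Over all tested probes, 1.32% were called higher and 1.13% lower in treated animals at day 0, so a list of 10 would hold few calls at that rate. The members' median log2 difference, treated minus control, was -0.11, with 6 below 0 and 4 above, beside -0.01 over all probes.

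By role, the inducible HSP70 HSPA1A differed by 0.16 ± 0.33 (SE, n = 5 per group) between treated and control muscle at day 0, with a 95% interval from -0.57 to 0.89. The constitutive HSP70 of the cytosol, HSPA8, had -0.04 ± 0.26 (interval -0.62 to 0.54). HSPA5, the HSP70 of the endoplasmic reticulum also called BiP or GRP78, had 0.15 ± 0.16 (interval -0.19 to 0.49). These 3 intervals exclude a doubling, a log2 difference of 1, in either direction, but that of the second HSPA1A probe did not (0.21 ± 0.37, interval -0.60 to 1.03).

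Their partners were measured less evenly. HSPH1, the HSP110 exchange factor, had -0.32 ± 0.22, and DNAJB1, the HSP40 partner of HSP70, had 0.38 ± 0.52 with an interval from -0.77 to 1.53. HSP90AA1, the stress-inducible cytosolic HSP90, had -0.30 ± 0.25. The mitochondrial chaperonin HSPD1 (HSP60) had -0.52 ± 0.83, and its lid HSPE1 (HSP10) had 0.22 ± 0.15. The small heat shock proteins HSPB1 and CRYAB had -0.37 ± 0.24 and -0.17 ± 0.44. The wide interval of HSPD1, -2.36 to 1.31, goes with the array of 1 animal, DE27. Without DE27 the HSPD1 value was 0.38.

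**Figure D1:**
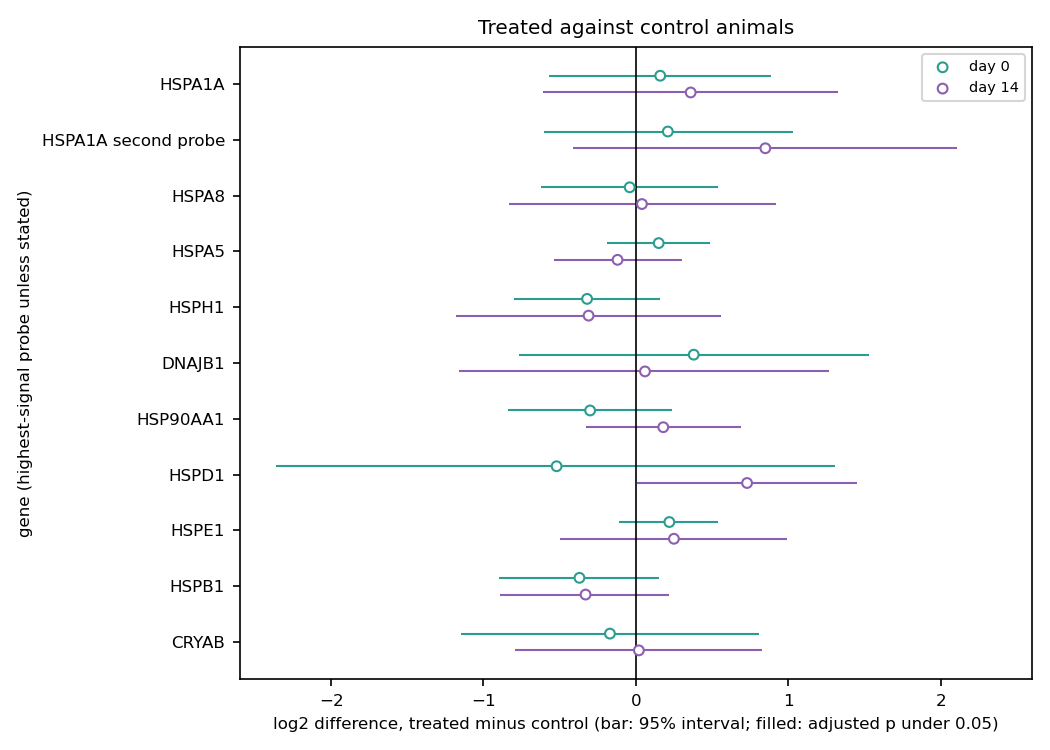
Log2 difference between treated and control animals at day 0 and at day 14 for 10 chaperone genes and the second HSPA1A probe, with 95% intervals (n = 5 per group). All points are open because none passed the threshold, and the interval of HSPD1 at day 14 is the only one that misses 0, from 0.01 to 1.45.

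The comparison at day 14 gave no called member either, with log2 differences from -0.33 to 0.73 and adjusted p between 0.471 and 0.988. Few probes of the array were called at that time, 0.0259% higher and 0.0454% lower. HSPD1 had 0.73 ± 0.33 with an unadjusted p of 0.0463 by limma and an adjusted p of 0.471. Its control values at day 14 were 10.08 in K3, 11.25 in K6, 10.54 in K8, 10.48 in K9 and 11.09 in K10. The treated values were 11.76 in DE27, 12.16 in DE29, 11.67 in DE30, 10.77 in DE31 and 10.73 in DE32. DE31 and DE32 lay inside the control range, so the groups overlapped.

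Over the mean of both days per animal, the members' log2 differences ran from -0.35 to 0.26, and none passed, beside 1.38% of all probes called higher and 1.94% lower. The most negative was HSPB1, with -0.35 ± 0.18, an interval from -0.76 to 0.05 and an adjusted p of 0.329. At day 0 the HSPB1 values in control animals ran from 16.28 to 17.54 with a median of 17.14, against 16.49 to 17.16 with a median of 16.73 in treated ones. At day 14 they ran from 16.43 to 17.51 against 16.41 to 17.21. Control and treated HSPB1 values overlapped on both days.

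Of 112 other chaperone genes, 102 were tested, and none was called for treatment at day 0 or at day 14, beside 2.45% and 0.0713% of all probes. Over both days 2 were called, beside 3.32% of all probes, so 2 of 102 is not above the share of the whole array. FKBP5, an HSP90 co-chaperone that lowers the hormone affinity of the glucocorticoid receptor, was 6.3-fold lower in treated animals (-2.66 ± 0.52, adjusted p = 0.0218). At day 0 its values in treated animals were 4.97 in DE27 and 8.55 to 8.86 in the other four. In control animals at day 0 they were 8.67 in K10, 10.54 in K3, 11.55 in K6, 12.06 in K9 and 12.75 in K8. The day 0 groups overlapped only because K10 lay within the treated range. At day 14 the treated values ran from 7.84 to 8.99 and the control values from 8.37 to 12.26, with K3 inside the treated range. The call was lost without K8 (adjusted p = 0.0549), K9 (0.0529) or DE29 (0.0507). DNAJC7, a J protein found with both HSP70 and HSP90, was 1.39-fold higher (0.48 ± 0.11, adjusted p = 0.0375), and its call was lost in 9 of the 10 fits that left out 1 animal, where adjusted p reached 0.0963.

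Storage was the second question: what 14 days under vacuum at 4 °C did to the chaperone transcripts. Over all animals, 3 of the 10 members fell: HSPA8, HSPE1 and HSP90AA1. HSPA8 fell by 0.84 on the log2 scale, a 1.79-fold decrease (SE 0.24, n = 10 per day, adjusted p = 0.00668). HSPE1 fell by 0.64 (1.56-fold, SE 0.19, adjusted p = 0.0069), and HSP90AA1 fell by 0.49 (1.4-fold, SE 0.18, adjusted p = 0.0239). None rose. In the same comparison 31.6% of all tested probes were called higher and 23.1% lower, so 3 of 10 falling members is near the share of the whole array. The median of all probes moved by 0.10 with the 75th percentile scaling, while the members' median was -0.16, with 6 below 0 and 4 above.

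**Figure D2:**
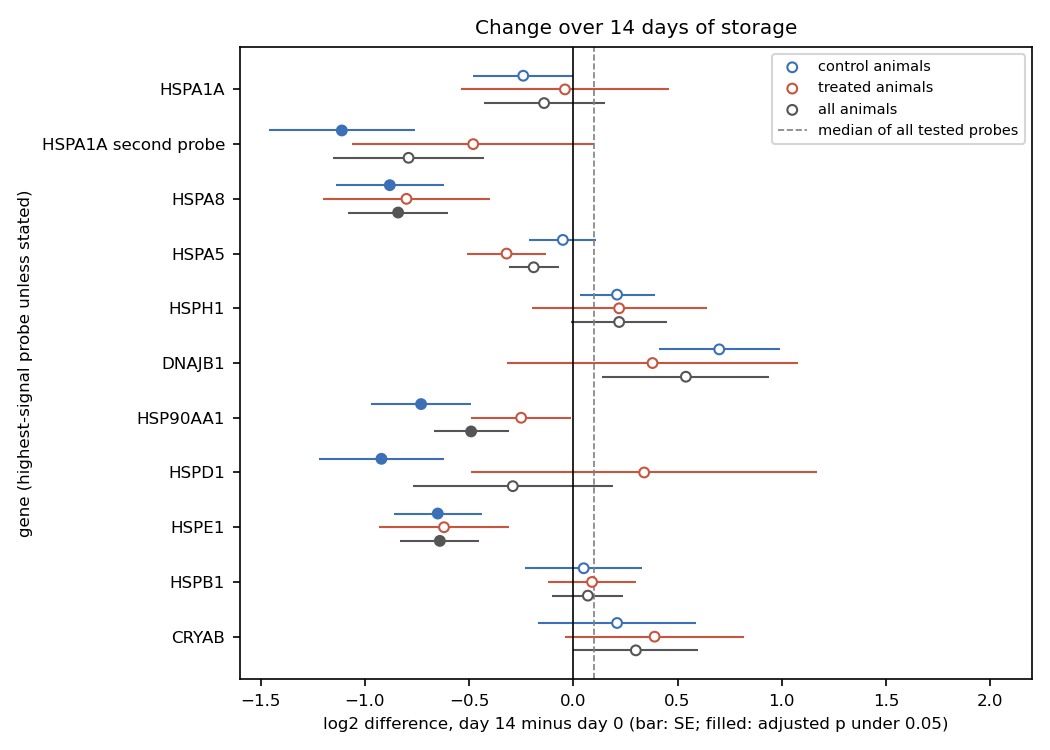
Log2 difference between day 14 and day 0 in control animals, treated animals and all animals, with the SE as bars and filled points for an adjusted p under 0.05. The dashed line is the median of all tested probes in all animals, 0.10. HSPA8, HSPE1, HSP90AA1 and, in control animals, HSPD1 and the second HSPA1A probe lie to its left as filled points.

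HSPA8, the everyday HSP70 that also uncoats clathrin vesicles, was measured at 13.29 in K3, 13.41 in K6, 13.71 in K8, 13.22 in K9 and 12.51 in K10 in fresh control muscle. After storage the same animals had 12.47, 12.02, 12.40, 11.88 and 12.96. It was lower at day 14 in every control animal but K10. Treated animals had 12.54 in DE27, 13.49 in DE29, 13.60 in DE30, 13.43 in DE31 and 12.88 in DE32 when fresh. Stored, they had 13.56, 12.40, 12.96, 11.30 and 11.73. DE27 was the only treated animal in which it was higher at day 14. The change within an animal ran from -2.13 to 1.01 with a mean of -0.84 ± 0.93 (SD, n = 10).

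HSPE1, which caps the HSP60 barrel, was the only member whose control groups did not overlap between the days. Of all tested probes, 12.0% were lower at day 14 in the same way and 17.3% were called lower. Fresh control values were 13.27 in K3, 13.26 in K6, 13.42 in K8, 13.12 in K9 and 13.34 in K10, against 12.77, 12.02, 12.89, 12.35 and 13.12 after storage. K9 fresh and K10 stored lay at the same rounded value of 13.12, so the separation is narrow. Treated animals had 13.05 in DE27, 13.60 in DE29, 13.54 in DE30, 13.69 in DE31 and 13.61 in DE32, against 13.68, 12.97, 13.44, 12.08 and 12.22 at day 14. It was lower after storage in 9 of 10 animals, DE27 being the exception.

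HSP90AA1 had 14.02 fresh and 13.16 stored in K3, 14.24 and 13.30 in K6, 14.89 and 13.62 in K8, 13.98 and 13.24 in K9, and 13.87 and 14.04 in K10. In treated animals the pairs were 13.42 and 14.06 in DE27, 14.21 and 13.85 in DE29, 14.11 and 13.81 in DE30, 14.28 and 13.24 in DE31, and 13.47 and 13.31 in DE32. It was lower at day 14 in 8 of 10 animals. Quantile normalization gave -0.38 with an adjusted p of 0.0632, and leaving out K3, K6, K8, K9 or DE31 gave an adjusted p of up to 0.0681, which ended the call.

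HSPD1 fell in control animals and was not called over all animals (-0.29 ± 0.48, adjusted p = 0.626). The control pairs of day 0 and day 14 were 11.99 and 10.08 in K3, 12.02 and 11.25 in K6, 11.68 and 10.54 in K8, 11.69 and 10.48 in K9, and 10.65 and 11.09 in K10. In treated animals they were 7.48 and 11.76 in DE27, 12.30 and 12.16 in DE29, 12.09 and 11.67 in DE30, 12.48 and 10.77 in DE31, and 11.06 and 10.73 in DE32. It was lower at day 14 in 8 of 10 animals, and the value of 7.48 in fresh DE27 differed by -4.50 from the mean of the other 4 treated animals of that day. Both spots of the probe were low on that array, with processed signals of 174 and 294, and neither was marked as an outlier. Without DE27, HSPD1 fell by 0.80 over the remaining animals (adjusted p = 0.0115), and leaving out any other animal gave no call. DE27 had the largest rise of HSPD1, so a larger fall follows from leaving it out. HSPD1 and HSPE1 are neighbouring genes on chromosome 2 in the RefSeq gene table for assembly ARS-UCD2.0. In the same DE27 array HSPE1 was 13.05, the lowest of its group and -0.56 from the mean of the other 4. HSPA8 (chromosome 15) and HSP90AA1 (chromosome 21) were also the lowest of their group there, -0.81 and -0.6 from the mean of the other 4. The remaining members were not lowest in that array.

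Each treatment group was also tested on its own. In control animals 4 members fell: HSPA8 by 0.88 (SE 0.26, adjusted p = 0.0206), HSPD1 by 0.92 (SE 0.30, adjusted p = 0.0319), HSP90AA1 by 0.73 (SE 0.24, adjusted p = 0.031) and HSPE1 by 0.65 (SE 0.21, adjusted p = 0.0284), beside 21.8% of all probes called higher and 17.3% lower. With the animal as a block, HSPA8 (adjusted p = 0.0519) and HSPD1 (adjusted p = 0.058) were no longer called, which left 2. The count was 0 without any 1 of K3, K6, K8 and K9, and 4 without K10.

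In treated animals no member passed, beside 18.1% of probes called higher and 11.6% lower. HSPA8 had -0.80 ± 0.40 (adjusted p = 0.155) and HSPE1 had -0.62 ± 0.31 (adjusted p = 0.151) there, sizes near those in control animals, while HSP90AA1 had -0.25 ± 0.24 and HSPD1 0.34 ± 0.83. Without DE27 both HSPA8 (-1.25, adjusted p = 0.021) and HSPE1 (-0.94, adjusted p = 0.0325) passed in treated animals. DE27 was the only treated animal in which either gene rose, so larger falls follow from leaving it out. Neither gene passed without any other treated animal, where adjusted p reached 0.453 for HSPA8 and 0.446 for HSPE1.

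A test of the difference in storage change between treated and control animals called no member and no probe at all, 0.0% higher and 0.0% lower, with 541 probes at an unadjusted p under 0.05 by limma. The member with the widest difference was HSPD1, 1.25 ± 0.94 (interval -0.72 to 3.22). A difference of the storage change between treated and control muscle was therefore not shown for any of the 10 genes.

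**Figure D3:**
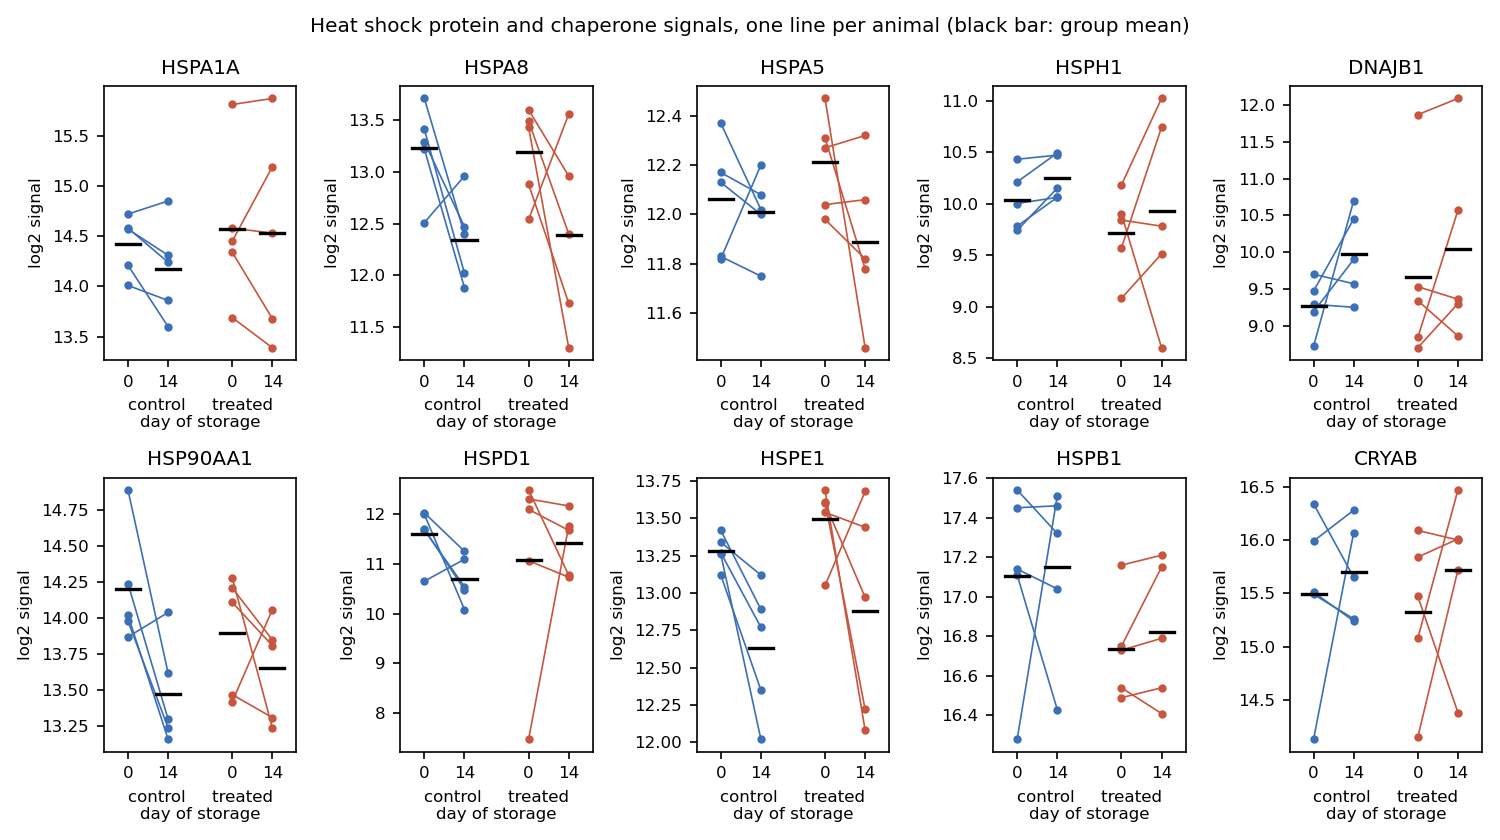
Log2 signal of 10 chaperone genes at day 0 and day 14, with a line for each animal (5 control, blue; 5 treated, red) and black bars at the group means. The vertical scale differs between panels. HSPE1 falls in all 5 control animals, the HSPD1 point at 7.48 is fresh muscle of DE27, and DE30 is the highest line in the HSPA1A and DNAJB1 panels.

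The animals that ran against the others were K10 and DE27. HSPA8, HSP90AA1 and HSPD1 were lower at day 14 in every other animal and higher in these 2. By deviations from group means over the array, the day 0 and day 14 arrays of K10 had r = -0.125, and those of DE27 -0.173. The medians with day 14 arrays of other animals of the group were 0.099 and 0.064. The day 0 arrays of K10 and DE27 were the only day 0 arrays on slide 6, beside the day 14 arrays of K3 and K8. Leaving out both animals gave -1.23 for HSPA8, -0.95 for HSPD1, -0.85 for HSPE1 and -0.71 for HSP90AA1. This alternative was added after their values were seen and removes the animals in which 3 of these genes were higher, so larger falls follow from the choice and carry no test.

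Within slide 6, stored control (K3 and K8) minus fresh control (K10) was -0.07 for HSPA8, -0.34 for HSPD1, -0.48 for HSP90AA1 and -0.51 for HSPE1. Over all animals the storage difference within slide 6 (2 arrays per day) was -0.09 for HSPA8, 1.25 for HSPD1, -0.25 for HSP90AA1 and -0.37 for HSPE1. Within slide 5 (1 fresh and 2 stored arrays) it was -0.54, -0.15, 0.20 and -0.95. On scan day 2, with 5 arrays per day, the storage differences over all animals were -1.20 for HSPA8, -0.85 for HSPD1, -0.84 for HSPE1 and -0.62 for HSP90AA1. On scan day 1, with 3 per day, they were -0.73, -0.38, -0.49 and -0.42. With the slide as a block, which leaves slides 5 and 6 to carry the comparison, HSPA8 had -0.23 (adjusted p = 0.743), HSPE1 -0.46 (0.421), HSP90AA1 -0.09 (0.859) and HSPD1 0.69 (0.437), so none of the 3 calls was kept. Storage and slide are largely confounded here, and the part of the slide was not tested.

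HSPA1A itself, the classic inducible HSP70, was not called over storage by its brightest probe (-0.14 ± 0.29, adjusted p = 0.689, all animals). Its fresh and stored values were 14.01 and 13.86 in K3, 14.58 and 14.24 in K6, 14.57 and 14.31 in K8, 14.21 and 13.60 in K9, and 14.72 and 14.85 in K10. In treated animals they were 14.58 and 14.53 in DE27, 14.45 and 15.19 in DE29, 15.81 and 15.87 in DE30, 14.34 and 13.68 in DE31, and 13.69 and 13.39 in DE32. DE30 was the highest animal on both days, 1.54 above the mean of the other 4 treated animals at day 0 and 1.68 at day 14.

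The second HSPA1A probe differed in size from the first. In control animals it fell by 1.11 (SE 0.35, adjusted p = 0.0279), from 11.70, 12.63, 12.61, 12.53 and 12.80 in K3, K6, K8, K9 and K10 to 10.35, 10.91, 11.84, 11.28 and 12.32. All 5 control animals were lower after storage, whereas the brightest probe gave -0.24 ± 0.24 (adjusted p = 0.444) in the same arrays. In treated animals the second probe had -0.48 ± 0.58, and over all animals -0.79 ± 0.36 (adjusted p = 0.0685). With the animal as a block the value over all animals passed (adjusted p = 0.00948). Across the 20 arrays, after removing group means, the pair of probes had r = 0.92, so they ranked animals alike while giving storage changes of different size. The control call was lost without K6 (adjusted p = 0.105), K8 (0.0567) or K9 (0.103), and blocking on the slide gave -1.71 (adjusted p = 0.168). The mean of the HSPA1A probes gave -0.68 in control animals (adjusted p = 0.0755).

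DNAJB1, a J protein and like HSPA1A a classic HSF1 target, had higher mean values after storage that did not pass the threshold in the main fits. Fresh and stored signals were 9.19 and 9.90 in K3, 9.29 and 9.25 in K6, 9.70 and 9.57 in K8, 9.47 and 10.45 in K9, and 8.72 and 10.70 in K10. The control difference was 0.70 ± 0.29 (adjusted p = 0.0738), and it passed with the scan day as a block (0.72 ± 0.21, adjusted p = 0.0256), an alternative added after seeing the data. Treated animals had 9.53 and 9.36 in DE27, 8.84 and 10.57 in DE29, 11.87 and 12.09 in DE30, 9.34 and 8.86 in DE31, and 8.70 and 9.30 in DE32. Over all animals the value was 0.54 ± 0.40 (adjusted p = 0.253), with 6 animals higher and 4 lower at day 14. Without DE30 it was 0.58 with an adjusted p of 0.0469, and DNAJB1 then passed. It did not pass without any other animal, where adjusted p reached 0.458.

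HSPA5, HSPH1, HSPB1 and CRYAB were not called over storage with the main scaling. HSPA5 had -0.19 ± 0.12 (adjusted p = 0.186) and lay between 11.46 and 12.47 on all 20 arrays, but it was called lower with median centring (-0.50, adjusted p = 0.00345) and after normexp correction (-0.39, adjusted p = 0.0448). HSPH1 had 0.22 ± 0.23 and was higher at day 14 in 8 of 10 animals, all 5 control animals among them. HSPB1 had 0.07 ± 0.17 and CRYAB 0.30 ± 0.30. With the slide as a block CRYAB was called higher (1.23 ± 0.38, adjusted p = 0.0429). The signs of HSPB1, CRYAB and HSPH1 turn when arrays are centred on the median, to -0.24, -0.01 and -0.10. CRYAB, the alpha B-crystallin that binds desmin and titin, spread widely within each group: fresh control muscle ran from 14.13 (K10) to 16.34 (K8), and stored treated muscle from 14.38 (DE31) to 16.47 (DE27). Its gene lies beside HSPB2 in the RefSeq table, and HSPB2, another small heat shock protein of muscle, had -0.18 ± 0.14 (adjusted p = 0.269).

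The wider set of chaperone genes held more calls lower than higher after storage. Of 102 tested genes, 48 fell and 12 rose over all animals, where 23.1% of all probes were called lower and 31.6% higher, with a median of -0.30 beside 0.10 for all probes. In control animals 34 fell and 9 rose (17.3% and 21.8% of all probes), with the largest rises in DDIT3, CHORDC1, HSPA13 and DNAJB5 and the largest falls in CDC37L1, ATF4, PPID and PFDN1. In treated animals 24 fell and 7 rose (11.6% and 18.1% of all probes), with the largest rises in CHORDC1, DNAJC9, HSPA13 and DNAJB5 and the largest falls in CDC37L1, PPID, BAG2 and PFDN2. CDC37L1 was above background on 3 of 5 stored control and 2 of 5 stored treated arrays and ATF4 on 4 of 5 stored control arrays, so their place in this order is not exact. The class counts that follow are over all animals and stand beside the same 23.1% lower and 31.6% higher. The cytosolic TRiC chaperonin, which folds actin and tubulin, had 7 of 8 subunits lower (median -0.76), CCT4 (-1.06 ± 0.16) and CCT6A (-0.93 ± 0.15) among them. Prefoldin, which hands nascent actin and tubulin to TRiC, had 4 of 6 subunits lower (median -1.05), led by PFDN1, 2.59-fold lower (-1.37 ± 0.23, adjusted p = 4.77e-05). No subunit of either complex rose.

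Among HSP90 and its co-chaperones 9 of 19 fell and 1 rose. PPID, a cyclophilin of the HSP90 complex, was 2.82-fold lower (-1.49 ± 0.21, adjusted p = 1.08e-05), and HSP90AB1, the constitutive HSP90, had -1.01 ± 0.19. CHORDC1, an HSP90-binding protein, was 2.22-fold higher (1.15 ± 0.15, adjusted p = 4.57e-06). CDC37L1, a relative of the kinase adaptor CDC37, had -1.96 ± 0.28 (adjusted p = 8.87e-06), but its probe was above background on only 3 of 5 stored control arrays and 2 of 5 stored treated ones, and normexp background correction gave 0.12.

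In the HSP70 family 2 of 6 fell and 2 rose. HSPA9, the mitochondrial HSP70 also called mortalin, had -1.22 ± 0.18 (adjusted p = 1.14e-05), while HSPA13, a microsomal relative, was 2.02-fold higher (1.02 ± 0.13, adjusted p = 3.56e-06). J proteins were split, with 11 of 24 lower and 6 higher, DNAJC9 (0.97 ± 0.18) and DNAJB5 (0.94 ± 0.13) among the higher ones. Of 11 nucleotide exchange factors 5 fell and 1 rose, and BAG2, which restrains the HSP70-bound ligase CHIP, had -1.35 ± 0.24. Small heat shock proteins beyond HSPB1 and CRYAB had 3 of 5 lower, HSPB7, HSPB3 and HSPB8.

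Endoplasmic reticulum folding genes had 4 of 12 lower and none higher. Of 7 stress transcription factors and their regulators, 3 fell and 2 rose: ATF4, a translation-controlled stress factor, was 2.71-fold lower (-1.44 ± 0.24, adjusted p = 5.35e-05) with 4 of 5 stored control arrays above background, and DDIT3, its target also known as CHOP, was 2.07-fold higher (1.05 ± 0.22, adjusted p = 0.000546). None of 4 mitochondrial quality control genes was called. With the slide as a block 11 of the 102 genes were called over all animals in place of 60.

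**Figure D4:**
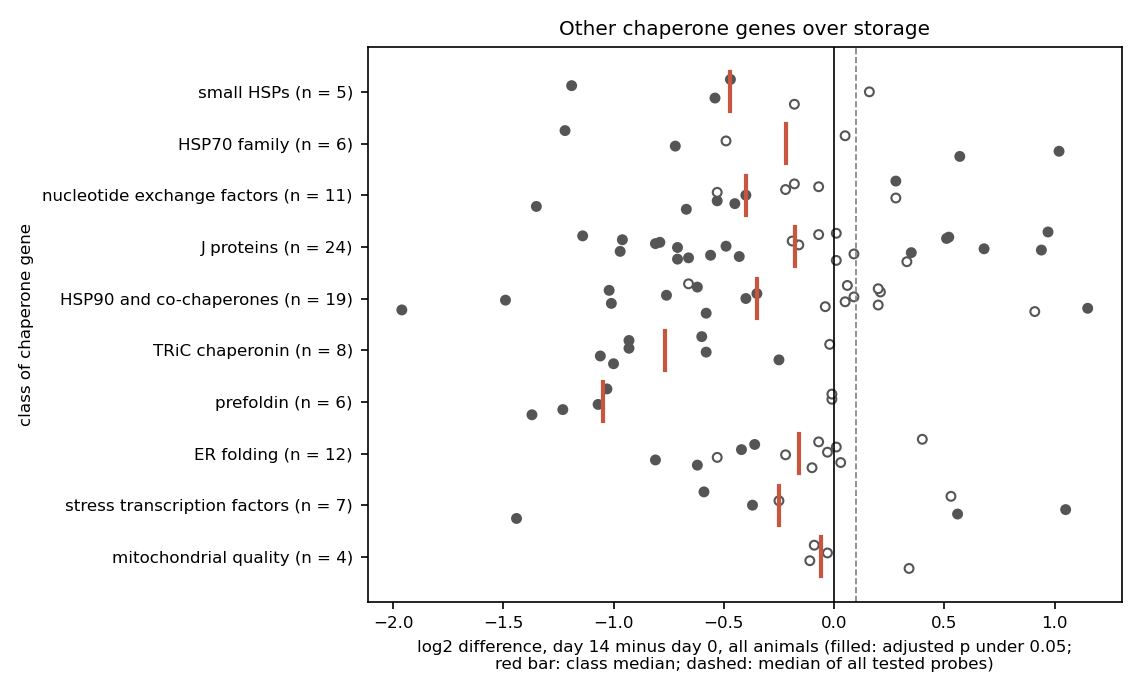
Log2 difference between day 14 and day 0 over all animals for 102 chaperone genes outside the main 10, by class, with filled points for an adjusted p under 0.05, red bars at class medians and a dashed line at the median of all probes, 0.10. Prefoldin (median -1.05) and TRiC (median -0.76) lie farthest left, and HSP70 relatives, J proteins and stress factors reach both sides.

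Some markers of most listed cell types were called over storage in all animals, beside 31.6% of all probes called higher and 23.1% lower. Smooth muscle and pericyte markers were higher in 6 of 6 genes, with a summed signal of 18200 to 23400 in fresh control, 16700 to 32400 in fresh treated, 23300 to 99400 in stored control and 15500 to 62400 in stored treated muscle. Endothelial markers rose in 6 of 7 genes, with sums of 3470 to 4810, 4680 to 6380, 4510 to 12200 and 5360 to 12100 in the same order. Fibroblast markers fell in 4 of 10 genes, with sums of 30800 to 65800, 30000 to 75300, 19500 to 90200 and 8640 to 41700. Of 11 skeletal muscle markers 4 rose and 3 fell, with sums of 1140000 to 1410000, 834000 to 1230000, 1090000 to 1370000 and 1390000 to 2040000. Erythroid markers rose in 2 of 3 genes, lymphocyte markers in 3 of 3 and macrophage and myeloid markers in 1 of 7. Adipocyte markers fell in 2 of 5, and no nerve and Schwann marker was called. In treated animals alone no smooth muscle and pericyte marker was called, and 2 of 7 endothelial markers rose. Fewer cells of a type and less RNA per cell cannot be told apart in whole tissue, and the part of these markers in the chaperone changes was not tested.

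The last question was whether the chaperones varied together between animals. Each of the 9 other genes was set against HSPA1A over the 10 arrays of a day after removing the group means, with a permutation test of 100000 draws (two-sided). At day 0 the closest was DNAJB1 (Pearson r = 0.83, permutation p = 0.0114, adjusted over the 9 pairs 0.103; Spearman rho = 0.49, permutation p = 0.155), followed by HSPH1 (r = 0.68). Neither passed after adjustment. Leaving out DE30 and DE32, the animals farthest from the HSPA1A median, gave r = 0.02 for DNAJB1 and 0.05 for HSPH1. Removing the extremes of HSPA1A can lower r by itself, so this fall carries no test.

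At day 14, 8 of 9 genes passed this test against HSPA1A after adjustment. The permutation mixed the deviations of both groups, although the HSPA1A SD at day 14 was 0.48 in control and 1.03 in treated animals. Its p values may therefore be too small. DNAJB1 had r = 0.78 (permutation p = 0.00797, adjusted 0.029; rho = 0.78, p = 0.0111, adjusted 0.0315) and HSPB1 r = 0.76 (permutation p = 0.012, adjusted 0.029; rho = 0.85, p = 0.00281, adjusted 0.0253). HSPD1 had r = 0.76 (permutation p = 0.012, adjusted 0.029; rho = 0.76, p = 0.0149, adjusted 0.0315), and HSP90AA1 and HSPA5 both had r = 0.73 (permutation p of 0.0161 and 0.0158, both adjusted 0.029). HSPE1 (0.70), HSPA8 (0.68) and HSPH1 (0.68) followed. CRYAB had r = 0.57 (permutation p = 0.0857) and did not pass.

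Without DE30 and DE32, r at day 14 was 0.82 for HSPD1 and HSP90AA1, 0.68 for HSPB1, 0.56 for DNAJB1 and 0.50 for HSPH1. For comparison, 4.21% of 11249 other genes had an r of at least 0.68 with HSPA1A at day 14, and the median over them was -0.02, against 0.73 over the 9 chaperones. After quantile normalization r at day 14 lay between 0.53 (CRYAB) and 0.80 (HSPD1), and 0 of 9 pairs passed (adjusted p from 0.0554 to 0.116). Deviations of the members at day 14 ran against those of the share of spots above background (r from -0.75 for HSPD1 to -0.14 for DNAJB1). At day 0 these r were positive, from 0.07 for HSPE1 to 0.57 for CRYAB. With the array's 75th percentile, r at day 14 ran from -0.15 for HSPD1 to 0.73 for HSPE1. At day 0 it ran from 0.39 for HSPA1A and HSPE1 to 0.76 for HSP90AA1. The part of either array measure in the relation was not tested. No slide or scan day held 6 arrays of 1 day, so no value within a batch can be given.

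**Figure D5:**
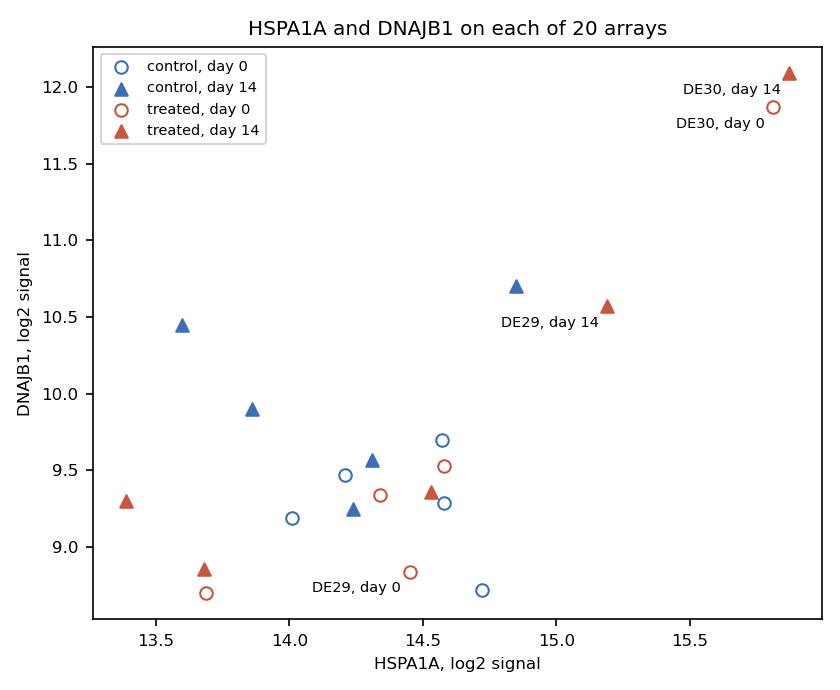
Log2 signal of DNAJB1 against HSPA1A on each of 20 arrays (control blue, treated red; day 0 open circles, day 14 filled triangles). Both arrays of DE30 lie alone at the upper right, and DE29 moves from 8.84 to 10.57 for DNAJB1 between its days.

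DE30 stood out in DNAJB1 as well, 2.76 above the mean of the other 4 treated animals at day 0 and 2.57 at day 14, and it held the highest HSPH1 value of all arrays at day 14, 11.02. DE30 was also the highest treated animal for fresh CRYAB (16.09), HSPB1 (17.16) and HSPH1 (10.18), and for stored HSPB1 (17.21) and HSPA5 (12.32). Its fresh HSPA8, at 13.60, was just above DE29 at 13.49. Its fresh HSP90AA1 (14.11), HSPE1 (13.54), HSPA5 (12.27) and HSPD1 (12.09) values lay within the range of the other treated animals. So did its stored CRYAB, HSPA8, HSP90AA1, HSPD1 and HSPE1 values. At the other end, DE31 had the lowest stored values of the 20 arrays for HSPA8 (11.30), HSPA5 (11.46) and HSPH1 (8.60).

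Over all 20 arrays, after removing group means, the genes outside the members whose pattern was most like HSPA1A were SART3 (r = 0.80), SYNPO2L (0.80), RSRP1 (0.79), KBTBD8 (0.79) and VRK3 (0.79). DNAJB1 had 0.79, HSPH1 0.68 and the other 7 members 0.24 to 0.57 by the same measure. Without DE30 these 5 genes had r from 0.58 (RSRP1) to 0.79 (KBTBD8) over 18 arrays. RSRP1, an arginine and serine rich protein, had 6.74 and 6.86 in DE30 against 4.36 to 5.93 in all other arrays, so DE30 stood above every other animal there too. These likenesses describe the arrays and carry no test.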

How the data were processed

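The members and gene lists were chosen with earlier results of these data known. The authors deposited 20 one-colour scanner files whose processed signal is an intensity, background-subtracted and detrended by Feature Extraction 9.5.1.1 per the file headers, and a table of normalized intensity values whose method is not given in the sources used here (R 2.11.1 per the submitters' processing notes). Groups came from sample titles; the free-text descriptions disagree with them on the day and were not used. Control spots and outlier spots were dropped, spots averaged per probe, and log2 values computed from the deposited signal were centred on each array's 75th percentile. Probes well above background on at least 5 of 20 arrays were tested with limma 3.58.1 (R 4.3.3), Benjamini-Hochberg adjusted over 15430 probes. Members were all named; of 112 other chaperone genes, the 4 with the largest change per direction and comparison, and others by class, which were chosen after their values were seen. The main fits had no animal block. Both days of an animal come from 1 cow by the labels, so numbers pair the samples. Deviations from group means correlated between -0.173 and 0.323 within an animal. The median r with other animals of the group ran from -0.137 to 0.099. An animal's own r was above that median in K3, K6, DE29, DE30 and DE32 and below it in K8, K9, K10, DE27 and DE31. The pairing behind within-animal changes thus rests on the labels. Tested on simulated data for treatment at day 0 (15428 probes), the fit called 54 of 100 changes of 1 log2 unit and 89 of 100 changes of 2, with 12 false calls. Alternatives were normalization, background correction, filters, probe choice, slide, scan day or animal as a block, and leaving out each animal. Symbols came from the files and the RefSeq table for ARS-UCD2.0. The number of arrays limits the precision.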

Additional observations from a re-analysis of the deposited data

Results flagged for a closer look

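Among 44 sets of 5 arrays (11 probes in 4 groups), 5 held a value far from the others of its group. Chance alone gives about 1 in 20 for independent normal values. These sets share arrays, so the count of 5 is not a test of an excess. DNAJB1 in fresh muscle of DE30 was 11.87, with 9.53 the next highest treated value. HSPD1 in fresh muscle of DE27 was 7.48, with 11.06 the next, and HSPE1 on the same array was 13.05, with 13.54 the next. HSPD1 in fresh muscle of K10 was 10.65, with 11.68 the next. The second HSPA1A probe in fresh muscle of K3 was 11.70, with 12.53 the next.

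The third HSPA1A probe, which was too dim to test, was above background in stored muscle of DE29, at 7.33, and of DE32, at 4.69, both above the highest control value of 4.62 in stored K9. Both spots of the DE29 array were above background, with processed signals of 80.2 and 112, while 1 of 2 spots was in DE32 and in K9. The same DE29 array held 15.19 for the brightest HSPA1A probe and 10.57 for DNAJB1.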

How the results depend on the processing

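Of 1253 recomputed values over 64 results and 23 alternatives, 1101 kept their direction and their side of the threshold (or a count within 1.5 times), 68 lost and 16 gained a call, 29 changed sign and 39 counts moved. No member was called for treatment or for the difference in storage change under any alternative run. Causes of these shifts were not tested. Called members in control storage were 4, 1 after quantile normalization and with the deposited table, 0 with the slide as a block, 2 with the animal as a replicate block and 0 to 4 leaving out 1 animal. In treated storage they were 0, 2 after median centring or normexp and 0 to 2 leaving out 1 animal; over all animals 3, and 1 with the slide as a block, which was CRYAB (higher) and none of the 3. The animal block otherwise gained or lost only the calls named above.

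Other chaperone genes called at day 0 were 0, 2 after normexp, and 1 with probes above background on all arrays, the slide block, the scan day block or both slide 6 animals left out. Over both days they were 2, 1 after quantile normalization, normexp, the deposited table or no filter, 0 without both slide 6 animals and 0 to 2 leaving out 1 animal. With the slide as a block they were 0 in control, 0 in treated and 11 in all animals; in treated animals 51 after median centring. Leaving out 1 animal gave 26 to 50 in control and 11 to 42 in treated animals. FKBP5 over both days ranged from -3.03 to -2.27 (adjusted p 0.0109 to 0.0549) without 1 animal, and had an adjusted p of 0.0578 without K10 and DE27.

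Signs turned mostly for values near 0. With the slide as a block, treatment at day 0 gave 0.07 for HSPA8 and 0.18 for CRYAB, and storage over all animals gave 0.13 for HSPA5 and 0.69 for HSPD1. HSPD1 in treated storage gave -0.24 (normexp), -0.33 (slide) and -0.67 (scan day). Storage over all animals gave -0.05 (quantile), -0.24 (median) and -0.14 (normexp) for HSPB1, -0.01 (median) and -0.12 (normexp) for CRYAB, -0.10 (median) for HSPH1 and 0.12 (normexp) for CDC37L1. Without both slide 6 animals, HSPD1 at day 0 was 0.14, and HSPB1 and CRYAB over storage were -0.12 and -0.04. Leaving out 1 animal, day 0 treatment ranged from -0.51 to 0.13 for CRYAB, -0.17 to 0.62 for DNAJB1, -0.15 to 0.38 for HSPA1A (-0.10 to 0.47 by the second probe), -0.22 to 0.12 for HSPA8 and -0.87 to 0.38 for HSPD1; storage ranged from -0.06 to 0.15 for HSPB1 over all animals and from -0.65 to 0.85 for HSPD1 in treated ones. Pairs with HSPA1A that passed at day 14 went from 8 to 0 after quantile normalization. The median of all probes over storage was 0.10, -0.21 with median centring, -0.01 after quantile normalization and 0.48 after normexp, with 57.8%, 31.6%, 48.4% and 75.8% of calls higher.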
